A study of Mus musculus with 9 samples.

Results

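The genes examined were those of the phagocyte NADPH oxidase and of the enzymes that remove its product. They were read in cells sorted from mouse brain as microglia by the surface protein CD11b. The genes were chosen by symbol: Cybb, Cyba, Ncf1, Ncf4 and Rac2, which encode oxidase subunits, Hvcn1, a proton channel, and the superoxide dismutases Sod1 and Sod2. All 8 were found among the 23134 genes of the normalized count table, and all 8 passed the filter on low values that left 16575 genes for testing.

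The phagocyte oxidase moves electrons from NADPH inside the cell across a membrane to oxygen and so makes superoxide. Its catalytic subunit, gp91phox or NOX2 (Cybb), sits in the membrane with p22phox (Cyba). It becomes active when cytosolic subunits, among them p47phox (Ncf1) and p40phox (Ncf4), and a Rac GTPase join it. The voltage-gated proton channel Hvcn1 lets protons out and so balances the charge that the electrons carry. Superoxide dismutases turn superoxide into hydrogen peroxide and oxygen, Sod1 mainly in the cytosol and Sod2 in the mitochondrial matrix. Microglia, the resident macrophages of the brain, carry this oxidase and use it in host defence.

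The study deleted Chd8, a chromatin remodeller gene, in astrocytes (conditional knockout, cKO), and the 9 libraries fall into 3 groups of 3. These are control mice given saline, control mice given lipopolysaccharide (LPS, a bacterial cell wall component that causes inflammation), and astrocyte Chd8 cKO mice given LPS. LPS was given into the peritoneum at 5 mg/kg, and cells were taken 72 hours later from mice aged 2 to 3 months. The labels name neither the Cre line that drives the deletion nor the control genotype, and no cKO group without LPS is analysed here. After removal of myelin and of cells bound by beads against the astrocyte antigen ACSA-2, cells bearing CD11b were collected from cortex and hippocampus, although the tissue label says cortex alone. The sort does not separate microglia from neutrophils, monocytes or NK cells, which also carry CD11b. For the 3 cKO samples the title says saline but the genotype and treatment labels read LPS, and the latter was followed. Nothing in the labels says that the 3 libraries of a group came from separate mice, and a p-value here reflects only how far these libraries spread, part of which may be technical.

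Libraries held 10845937 to 86571481 reads, the fewest in saline library 3. Chd8 was read at 4252 to 6596 normalized counts in saline, and under LPS at 5408 to 5842 in control and 5214 to 6219 in cKO mice. The deletion was made in other cells, so these values do not check the genotype labels. The 12 microglia markers were read in every group, at summed levels of 1277516 to 1837503 normalized counts in saline, and of 1235022 to 1422870 and 1188039 to 1447845 under LPS in control and cKO mice. The 10 astrocyte markers summed to 96529 in control LPS library 1 and to between 5338 and 8946 in the other 8 libraries. Because of this library, the LPS results below are also given without it where it decides them.

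Upstream sequence was found for 5 of the 8 genes (Cybb, Cyba, Ncf1, Sod1 and Sod2) and is not shown for Ncf4, Rac2 and Hvcn1. The 250 bases before the transcript start are printed for 3 of them, 5′ to 3′ on the gene's strand, from RefSeq, build GRCm38.p6. Cybb is shown because it had the largest difference between groups among the 8, Cyba because its protein pairs with that of Cybb, and Ncf1 because it shares a motif with Cybb and had the highest normalized counts. Capitals mark the letters of the interferon-stimulated response element (ISRE: GAAA, any 2 bases, GAAA) on either strand and, in Ncf1, the letters TTCNNNGAA of the gamma-activated sequence (GAS).
Cybb, chrX:9469325-9469574, minus strand: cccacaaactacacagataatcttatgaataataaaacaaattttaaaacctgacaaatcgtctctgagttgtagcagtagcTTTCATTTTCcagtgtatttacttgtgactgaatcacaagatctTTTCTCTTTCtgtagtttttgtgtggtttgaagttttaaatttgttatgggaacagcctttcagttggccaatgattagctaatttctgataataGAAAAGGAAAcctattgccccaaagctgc
Cyba, chr8:122432941-122433190, minus strand: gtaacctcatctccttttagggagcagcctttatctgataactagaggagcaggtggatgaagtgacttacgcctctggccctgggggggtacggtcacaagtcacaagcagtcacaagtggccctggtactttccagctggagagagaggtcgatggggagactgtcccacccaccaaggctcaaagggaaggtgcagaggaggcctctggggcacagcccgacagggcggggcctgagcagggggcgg
Ncf1, chr5:134229626-134229875, minus strand: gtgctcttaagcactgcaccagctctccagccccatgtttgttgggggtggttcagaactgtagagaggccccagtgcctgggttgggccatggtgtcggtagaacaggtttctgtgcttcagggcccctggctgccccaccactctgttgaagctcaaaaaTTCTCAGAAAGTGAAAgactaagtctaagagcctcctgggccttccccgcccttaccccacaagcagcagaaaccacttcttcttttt

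The Cybb window held the ISRE letters at 3 places, which began at positions -168, -124 and -29 from the start. The first and second lay on the opposite strand, as TTTCATTTTC and TTTCTCTTTC, and the third on the gene's own strand, as GAAAAGGAAA. Of 32851 RefSeq windows of the same kind, 2.98% held the ISRE letters at least once, and 4 windows (0.0122%) held them 3 or more times. The Ncf1 window held them once, as GAAAGTGAAA from position -82, overlapping the GAS letters TTCTCAGAA from position -88. GAS letters occurred in 7.02% of windows and were also found in that of Sod2, as TTCCCAGAA. The Sod1 window held the letters TGANNNNGC of the antioxidant response element, which 35.2% of windows hold, and the Cyba window held none of the 6 motifs searched. The other motifs, GAGGAAGT (PU.1, in 2.44% of windows), a joint PU.1 and interferon regulatory factor element (GGAA, any 2 bases, GAAA, in 2.3%) and kappaB (GGGA, any 2 bases, TTCC, in 1.21%), were found in none of the 5 windows. The Cybb window lies inside a longer annotated Cybb transcript but outside its exons. A match is a description of the letters and not evidence of binding.

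How these genes stood 72 hours after LPS in control mice was read from control LPS against saline, the first comparison. Cybb rose 9.74-fold and was the only one of the 8 to pass the test. Rac2 stood 1.99-fold and Cyba 1.58-fold above saline without passing it, while the cytosolic subunits Ncf1 and Ncf4 and both dismutases stood 1.13-fold to 1.62-fold above it without passing the test. Across all genes tested, 4.68% rose and 0.923% fell at an adjusted p under 0.05, against 1 of 8 members that rose and 0 that fell. Of the 929 genes called, 776 rose and 153 fell, and after quantile normalization, which moved the median of all genes to -0.10, 568 rose and 243 fell. Values are normalized counts, and folds are on the log2(value + 1) scale.

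Cybb, the catalytic subunit, was read at 668, 421 and 966 normalized counts in saline libraries 1 to 3 and at 3422, 10172 and 7250 in control LPS libraries 1 to 3. Every control LPS library lay above every saline library, with library 1 the lowest of the 3. The difference was 3.28 on the log2 scale (SE 0.47, 95% interval 2.22 to 4.35, limma adjusted p = 0.00596), and the fold of 9.74 had an interval of 4.66 to 20.4. It rested on 1282 reads over the saline group and 25511 over control LPS. Cybb lies on the X chromosome (9435252 to 9487766, minus strand, GRCm38.p6), and Xist, the RNA of the inactive X, was read at 21229 or more in saline libraries 1 and 3 and in library 3 of both LPS groups, and at 6.21 or less in the other 5. The part of this difference in Cybb was not tested.

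Cyba, the membrane partner that stabilizes the catalytic subunit, was read at 7900, 7691 and 11096 in saline and at 11103, 16101 and 14953 in control LPS. The groups did not overlap, but the highest saline library and control LPS library 1 nearly met. The log2 difference was 0.66 (SE 0.19, limma adjusted p = 0.0893). Without control LPS library 1 it was 0.82, with a limma adjusted p of 0.0246, and without saline library 3 it was 0.83, with 0.04998. The gene lies on chromosome 8 (122424771 to 122432940, minus strand).

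Rac2, the GTPase of blood cells that helps to switch the oxidase on, was read at 6207, 5749 and 6908 in saline and at 8070, 17418 and 13904 in control LPS. The groups did not overlap, and control LPS library 1 was again the lowest of its group. The log2 difference was 1.00 (SE 0.25, 95% interval 0.44 to 1.55, limma adjusted p = 0.0502). Without control LPS library 1 the difference was 1.31, with a limma adjusted p of 0.0012. Rac1, the GTPase of most cell types, stood at 12554, 13136 and 15274 in saline and 9539, 13962 and 11180 in control LPS. Its groups overlapped, and its log2 difference was -0.25 (SE 0.18, limma adjusted p = 0.504).

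Among the cytosolic subunits, Ncf1, which organizes the complex, was read at 33072, 42891 and 34410 in saline and at 37082, 43022 and 44369 in control LPS. The groups overlapped, and the log2 difference was 0.18 (SE 0.17, limma adjusted p = 0.637). Ncf4, which binds phosphoinositides on the phagosome, was read at 4120, 3987 and 3026 in saline and at 4226, 5598 and 4507 in control LPS. Its groups were separated by a narrow margin, and the log2 difference was 0.37 (SE 0.21, limma adjusted p = 0.397).

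The proton channel Hvcn1 was read at 9795, 9279 and 11571 in saline and at 11267, 12537 and 16481 in control LPS. The groups overlapped, since saline library 3 exceeded control LPS library 1, and the log2 difference was 0.38 (SE 0.17, limma adjusted p = 0.256). Sod1 was read at 3669, 2766 and 4476 in saline and at 4167, 4881 and 5937 in control LPS. Its groups overlapped in the same way, and the log2 difference was 0.47 (SE 0.19, limma adjusted p = 0.213). Sod2 was read at 1143, 1066 and 1001 in saline and at 1215, 2534 and 1672 in control LPS. Its groups did not overlap, although control LPS library 1 lay just above the saline libraries, and the log2 difference was 0.69 (SE 0.28, limma adjusted p = 0.225). The extracellular dismutase Sod3 was read at 573, 484 and 542 in saline and at 1581, 70.9 and 119 in control LPS, so that library 1 lay above all saline libraries and libraries 2 and 3 below them. Its log2 difference was -1.16 (SE 0.93, limma adjusted p = 0.573), opposite in sign to the difference of the means, 590 against 533, and without library 1 it was -2.52 (limma adjusted p = 0.000979).

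**Figure D1:**
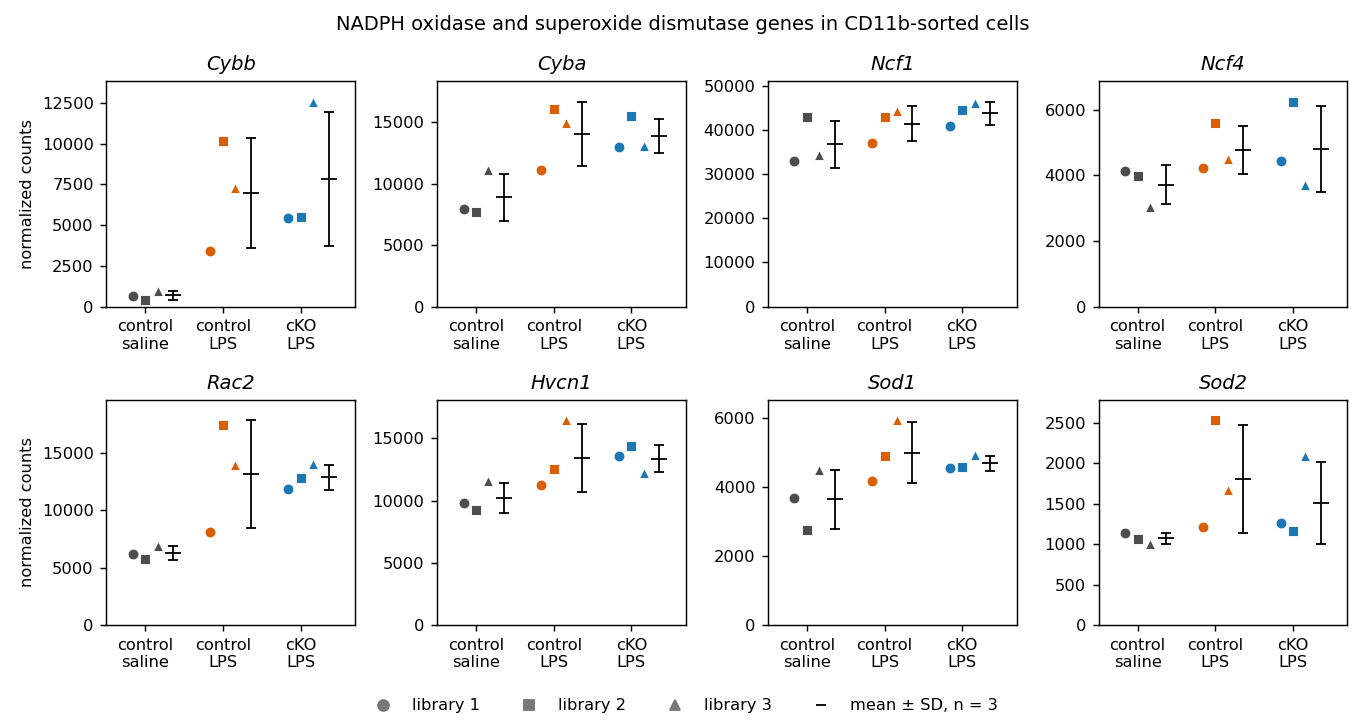
Normalized counts of the 8 genes (vertical axes, each from 0) in the 3 groups. Points are single libraries, and bars are the mean ± SD of 3 libraries. Cybb stood between 421 and 966 in saline and between 3422 and 12583 in the 6 LPS libraries, whereas the saline and LPS values of Ncf1 overlapped.

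As a group, all 8 differences were above 0, as were 51.8% over all genes tested. An unadjusted limma p under 0.05 was reached by 6 of 8, against 18.8% of all genes. In 5 of 8 genes (Cybb, Cyba, Ncf4, Rac2 and Sod2) no control LPS library overlapped a saline library and LPS was higher, against 13.4% of all genes tested. The median log2 difference of the 8 was 0.57, and that of all genes tested was 0.02. The 8 genes were chosen with earlier results of these data known, so these shares describe them and are not a test of the group. Control LPS library 1 lay below the mean of libraries 2 and 3 for 8 of 8 members, at a median log2 difference of -0.43, while 52.4% of all genes tested lay below.

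Markers of other cells moved with this comparison. Of 12 neutrophil markers 11 rose, against 4.68% of all genes tested. Their summed level went from 764 to 1643 normalized counts in saline to 11725, 93474 and 56150 in control LPS libraries 1 to 3. Mpo, a defining marker of granules, was unread in saline. Of 10 monocyte markers 7 rose, and their sum went from 4911 to 6591 in saline to 14704, 40430 and 18507 in control LPS. Among 9 T and NK cell markers 5 were tested and 3 rose. The sum of the 9 went from 45.7 to 221 in saline to 463, 1116 and 3556 in control LPS. Among B cell markers 1 of 5 tested rose, with sums of 528 to 1277 in saline and 747, 1058 and 1771 in control LPS. Control LPS library 1 was the lowest of the 3 for each of these sums and for 6 of the 8 members among all 6 LPS libraries. Mpo and Elane, both on the neutrophil list, went the other way. Mpo was read at 367, 221 and 157 and Elane at 86.1, 45.1 and 32.2 in control LPS libraries 1 to 3. The other neutrophil markers were lowest in library 1. Neutrophils and monocytes carry the same oxidase, and the part of all these cells in the results was not tested. In sorted bulk cells, fewer cells of a type and less RNA per cell cannot be told apart.

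**Figure D2:**
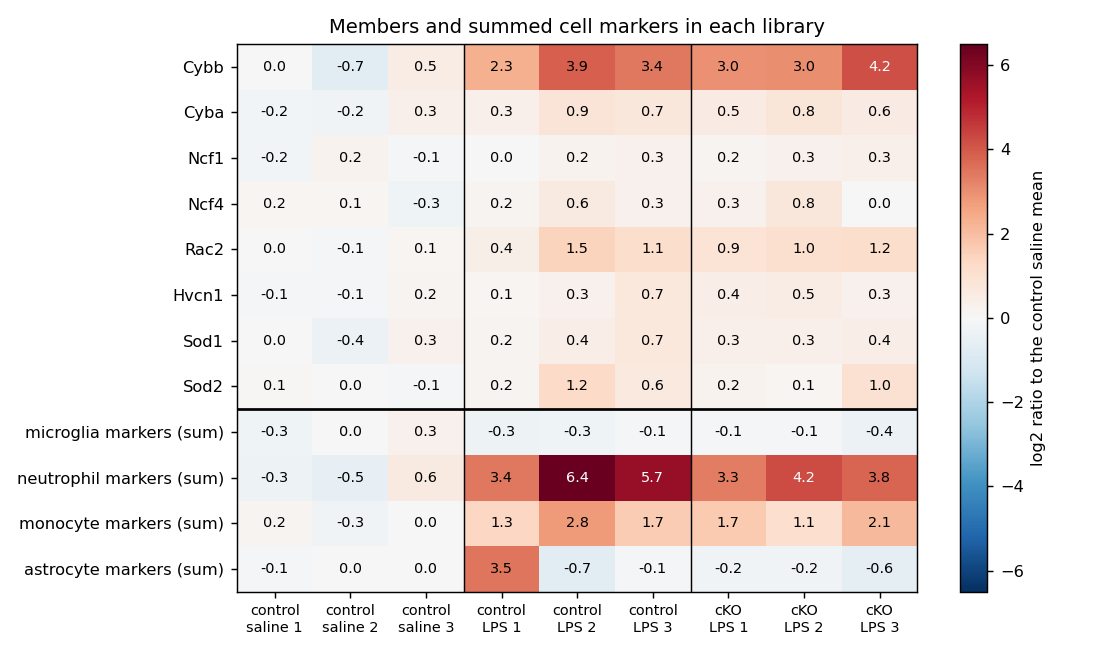
Log2 ratio of each library to the control saline mean (colour and printed value) for the 8 genes and for the summed microglia, neutrophil, monocyte and astrocyte markers. Columns are the 9 libraries in 3 groups. Control LPS library 1 had a ratio of 3.47 for astrocyte markers, where the other 8 libraries had 0.04 or less, and a ratio of 2.32 for Cybb against 2.99 to 4.20 in the other 5 LPS libraries.

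Whether loss of Chd8 in astrocytes moves these genes in the sorted cells under LPS was addressed by the second comparison, of cKO LPS with control LPS. None of the 8 passed the test, none had an unadjusted p under 0.05, and none separated the groups. In all genes tested, limma called 0 (0%), edgeR 0 and DESeq2 4, with 263 genes (1.59%) at an unadjusted limma p under 0.05. Groups that did not overlap were found in 2.7% of all genes with cKO LPS higher and in 2.32% with it lower. The median log2 difference of the 8 was 0.00 (0.00164) and that of all genes tested -0.02. Without control LPS library 1 the log2 differences of Cybb, Rac2 and Hvcn1 turned negative, at -0.251, -0.278 and -0.106. That of Rac1 did so too, at -0.0728, and 0 members were called.

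Cybb was read at 5443, 5485 and 12583 in cKO LPS libraries 1 to 3, so that cKO LPS library 3 was the highest of all 9 libraries and the other 2 lay within the control LPS range. Against control LPS the ratio was 1.14 with a 95% interval of 0.546 to 2.39 (limma adjusted p = 0.9999). Cyba was read at 13004, 15467 and 13081, inside the control LPS range, with a ratio of 0.995 (interval 0.736 to 1.34). Rac2 was read at 11822, 12789 and 13987, also within the control LPS range, at a ratio of 1.03 (0.698 to 1.51).

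Ncf1 was read at 40979, 44457 and 46136 in cKO LPS, at a ratio of 1.06 (0.813 to 1.38) to control LPS. Ncf4 was read at 4426, 6251 and 3708, a wider spread relative to its mean than that of Ncf1, at a ratio of 0.987 (0.711 to 1.37). Hvcn1 was read at 13558, 14403 and 12195, at a ratio of 1.01 (0.777 to 1.31). All 3 of these genes had overlapping groups. Sod1 was read at 4539, 4565 and 4937, at a ratio of 0.946 (0.705 to 1.27). Sod2 was read at 1264, 1166 and 2093, at a ratio of 0.843 (0.54 to 1.32), with cKO LPS library 3 high and the other 2 low. The narrowest interval of the 8, that of Hvcn1, spans changes of about 0.78-fold to 1.31-fold, and that of Cybb spans 0.546-fold to 2.39-fold. With 3 libraries per group, ratios inside these intervals are not excluded. The intervals are not limits of detection, because a call also required adjustment over all genes tested.

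The neutrophil sums of the 2 groups overlapped, at 11725, 93474 and 56150 for control LPS libraries and 11144, 20495 and 15152 for cKO LPS libraries. No neutrophil marker was called in this comparison, and 4 of 12 had an unadjusted limma p under 0.05 (1.59% of all genes tested), with all 12 differences below 0. In 4 of 12 the groups did not overlap and cKO LPS was lower, against 2.32% of all genes tested. For monocytes the sums were 14704, 40430 and 18507 against 19213, 12438 and 25238. The part of these cells in the oxidase values was not tested.

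The third comparison, cKO LPS against control saline, gives the LPS level of the cKO mice against the same saline libraries as the first comparison, so the 2 sets of values are not independent. Cybb rose 11.1-fold and Rac2 2.05-fold, and these 2 of 8 passed the test, against 5.41% of all genes tested that rose and 1.41% that fell. In 6 of 8 genes (Cybb, Cyba, Rac2, Hvcn1, Sod1 and Sod2) the groups did not overlap and cKO LPS was higher, against 17.9% of all genes. Cybb differed by 3.48 on the log2 scale (SE 0.47, interval 2.41 to 4.54, limma adjusted p = 0.00383). Rac2 differed by 1.03 (SE 0.25, interval 0.48 to 1.59, limma adjusted p = 0.0392), and its call was lost when any 1 saline or any 1 cKO LPS library was left out, at limma adjusted p of 0.0776 to 0.133. It was also lost without control LPS library 3 (limma adjusted p = 0.0594) and with edgeR (adjusted p = 0.0533). Cyba stood 1.57-fold above saline (limma adjusted p = 0.0803), and passed without saline library 3 (0.0463) or control LPS library 1 (0.0412). Hvcn1 stood 1.31-fold (limma adjusted p = 0.209) above saline. The other 4 stood 1.2-fold to 1.36-fold above saline with limma adjusted p of 0.264 to 0.4. In the same comparison 9 of 12 neutrophil and 7 of 10 monocyte markers rose, as did 3 of 5 tested T and NK and 2 of 5 tested B cell markers.

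**Figure D3:**
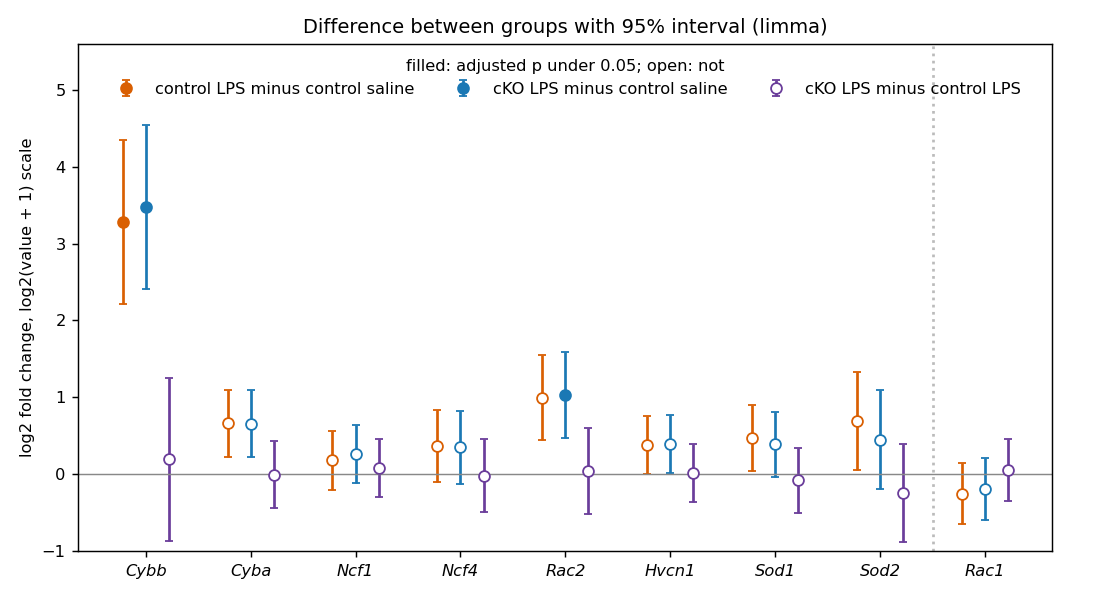
Log2 fold changes with 95% intervals from limma (vertical axis) for the 8 genes and, right of the dotted line, Rac1, in the 3 comparisons. Filled points passed an adjusted p of 0.05, and open ones did not. Only Cybb, at 3.28 and 3.48, and Rac2, at 1.03 in cKO LPS against control saline, are filled.

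Levels can be set beside each other only per length, so normalized counts were divided by the length of the union of exons of protein-coding transcripts. Which transcripts were expressed here was not measured, so the order of genes and the ratios between them depend on this choice of length. In saline, Ncf1 (12766 per kilobase) and Cyba (11956) were highest and their libraries overlapped. Sod1 (5674), Hvcn1 (3407), Ncf4 (2535) and Rac2 (2070) followed, with overlap between Ncf4 and Rac2 alone. Sod2 (183) and Cybb (144) were lowest and overlapped, an 11.3-fold step below Rac2. In control LPS, Cybb stood at 1462 per kilobase, above Sod2 at 308 and below Ncf4 at 3263, with no overlap to either. Cyba (18888) and Ncf1 (14397) again overlapped at the top. Hvcn1 (4479), Rac2 (4322) and Ncf4 (3263) overlapped in the middle, so their order is not resolved. In cKO LPS, Cyba (18617) lay above Ncf1 (15218) without overlap, and the lowest Ncf4 library fell below the highest Cybb library.

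**Figure D4:**
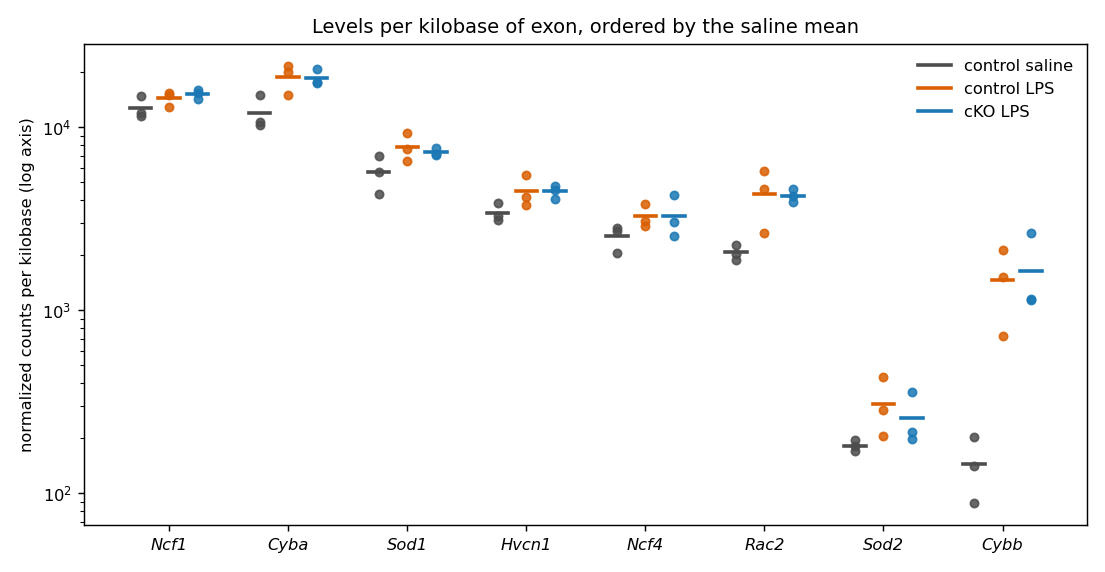
Normalized counts per kilobase of exon (log axis) for the 8 genes, ordered by the saline mean. Points are libraries and short lines the means of 3. In saline, Sod2 (183) and Cybb (144) stood 11.3-fold or more below Rac2 (2070), and in both LPS groups Cybb stood above Sod2.

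The ratio of Cybb to Cyba per kilobase, whose proteins pair with each other, was 0.0118 ± 0.00281 (SD, n = 3) in saline, 0.0744 ± 0.0254 in control LPS, and 0.0906 ± 0.0522 with the cKO. The saline libraries (0.00858 to 0.0136) lay below all LPS libraries (0.0482 to 0.151), so the catalytic subunit was the scarcer transcript of the pair in every library. The ratio of Rac2 to Rac1 was 0.64 ± 0.0409 in saline and 1.54 ± 0.32 and 1.5 ± 0.11 in the LPS groups, so Rac2 was the lower of the pair per kilobase in all saline libraries and the higher in all LPS libraries. In counts not divided by length, Rac2 stayed below Rac1 in control LPS library 1 (8070 against 9539) and lay above it in the other LPS libraries. The ratio of Sod2 to Sod1 was 0.0336 ± 0.00885, 0.0398 ± 0.0147 and 0.0349 ± 0.00999 in the same order, and the groups overlapped.

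The rest of the pathway was taken from lists. Of 12 other oxidase subunits and homologues 5 were tested and 0 were called in any comparison, with median log2 differences of -0.11, 0.05 and -0.20. Noxa1, Duox1 and Duoxa2 were not analysed here. Duoxa1, the maturation factor of a dual oxidase, was read at 188, 112 and 151 in saline and 68.4, 19.2 and 78.2 in control LPS. It did not pass the test (log2 difference -1.62, limma adjusted p = 0.21). Of 14 upstream activators, Itgb2, the beta subunit of the leukocyte integrins, was the only one called in the first comparison, at 18312, 24391 and 23472 in saline and 30944, 45190 and 41609 in control LPS. It rose by 0.82 on the log2 scale (SE 0.19, limma adjusted p = 0.0398). That call was lost when any 1 library other than control LPS library 1 was left out (limma adjusted p of 0.0571 to 0.157). Without control LPS library 1, 2 of the 14 were called, against 1826 of all 16575 genes tested. In cKO LPS against saline Itgb2 rose by 0.81 (limma adjusted p = 0.0374), and Prkca, a protein kinase C that can activate the oxidase, fell by 1.01 (limma adjusted p = 0.0427), from 2460 ± 287 to 1271 ± 453. Both of these calls were lost without any 1 saline library, without control LPS library 3 and without cKO LPS library 1 or 3, and that of Itgb2 also without cKO LPS library 2 (limma adjusted p of 0.0584 to 0.136 for Itgb2 and 0.0672 to 0.123 for Prkca).

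Of 22 other genes that remove superoxide and peroxide, Gpx3, the secreted glutathione peroxidase, was the only one called. It was read at 209, 148 and 667 in saline and at 1002, 1486 and 1423 in control LPS, with no overlap. It rose by 2.22 on the log2 scale in control LPS (SE 0.49, limma adjusted p = 0.0322) and by 2.23 in cKO LPS (limma adjusted p = 0.0275). The Gpx3 call in control LPS was lost without saline library 1 or 2, control LPS library 2 or 3, or cKO LPS library 1 or 2 (limma adjusted p of 0.0516 to 0.115). Without control LPS library 1, 7 of the 22 were called in control LPS and 5 in cKO LPS. In those fits 1826 and 1656 of all 16575 genes tested were called. The call of Gpx3 in cKO LPS was lost without saline library 1 or 2 or any 1 cKO LPS library (0.0643 to 0.108). Of 14 genes of the NRF2 pathway and of glutathione synthesis, Nfe2l2, which encodes NRF2, was the only one called in control LPS, at 10346, 11553 and 9617 in saline and 14360, 21864 and 20087 in control LPS. It rose by 0.82 (SE 0.19, limma adjusted p = 0.0426), a call lost without any 1 saline library, control LPS library 2 or 3, or cKO LPS library 1 or 2 (0.062 to 0.162). Without control LPS library 1 the calls numbered 4 of 14, against the same 1826 of all genes tested. In cKO LPS against saline Nfe2l2 differed by 0.75 without passing (limma adjusted p = 0.0523). It passed in 7 of 20 alternatives. These were the replicate block (limma adjusted p = 0.0415) and the fits without control LPS library 1 (0.0196) and without control LPS library 2 (0.04999). The others were a mean of at least 50 (limma adjusted p = 0.0468), only the 6 libraries compared (0.0329), array weights (0.0094) and DESeq2 (DESeq2 adjusted p = 0.0062). The median differences in control LPS were 0.17, 0.24 and 0.42 for activators, removal and NRF2 genes, and 0.02 for all genes tested.

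In cKO LPS against control LPS, 0 genes of these 4 lists were called. Prdx6, a peroxiredoxin, had the smallest unadjusted p of them and stood at 4206, 1714 and 1461 in control LPS against 1201, 1266 and 1451 under cKO, with no overlap. Its log2 difference was -0.75 (limma unadjusted p = 0.0549, adjusted p = 0.9999). Control LPS library 1, which carried the astrocyte markers, was the library at 4206. Osgin1 differed by -0.48, Prkcb by 0.25 and Cybc1, a chaperone that the oxidase membrane pair needs, by -0.14, all with a limma adjusted p of 0.9999.

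The genes whose library pattern was nearest to that of each member were taken from 12281 genes by the root mean square difference of centred log2 values over 9 libraries. For Cybb they were Ms4a4c (0.241), Gpr18 (0.274) and Fcgr4 (0.325), where Cybb itself varied by 1.7. For Cyba they were Il10rb (0.0696), Rps9 (0.0846) and Tnfsf12 (0.0925), where Cyba varied by 0.372. For Rac2 they were Tpd52 (0.0883), Dnase1l1 (0.105) and Htatip2 (0.109), where Rac2 varied by 0.555. The nearest gene was Rbl2 for Ncf1, Ppard for Ncf4, Ap4b1 for Hvcn1, Eif3m for Sod1 and Ssx2ip for Sod2. Likeness of pattern across these libraries includes the difference between saline and LPS that all share.

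The remaining members lie, on GRCm38.p6, at chr5:134220053-134229628 (Ncf1, minus strand), chr15:78244164-78262582 (Ncf4, plus strand) and chr15:78559169-78572783 (Rac2, minus strand). Hvcn1 lies at chr5:122206805-122242297, Sod1 at chr16:90220762-90226333 and Sod2 at chr17:13007839-13018119, all on the plus strand. In the annotation, exons of Hvcn1 overlap those of Tctn1 on the opposite strand over 1574 bases (52.5% of its exon bases), and those of Ncf1 overlap Gtf2ird2 over 361 bases (12.5%). Tctn1 was read at means of 633, 796 and 761 and Gtf2ird2 at 874, 656 and 598 in the 3 groups, well below their partners. Exons of Rac1 overlap those of Daglb on the opposite strand over 2309 bases (54.8% of its exon bases), and Daglb was read at means of 10469, 12128 and 12848 against 13655, 11560 and 11975 for Rac1. The Rac1 levels and the ratio of Rac2 to Rac1 above are uncertain to that extent. Whether counting used the strand is not given in the sources used here, so reads of an overlap may be assigned to either gene.

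In the authors' deposited table for control LPS against saline, Cybb had a log2 fold change of 3.35 (adjusted p = 2.41e-10), Rac2 1.06 (adjusted p = 0.00188) and Cyba 0.66 (adjusted p = 0.0292). In the authors' deposited table for cKO LPS against saline the values were 3.52 (adjusted p = 1.74e-11), 1.03 (adjusted p = 0.0024) and 0.64 (adjusted p = 0.0322). Rac2 in the first comparison and Cyba in both passed 0.05 in those tables and not in limma.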

How the data were processed

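Polyadenylated RNA was sequenced in 9 libraries made with a strand-keeping kit, per the labels' protocols. What the authors deposited is a signal per gene and library (normalized counts: reads scaled by a size factor) and, for each comparison, log2 fold changes, p-values and Wald scores. The submitters' processing notes list DESeq2, edgeR 3.30.3, FastQC, featureCounts, MultiQC 1.12, RSEM, STAR and Trimmomatic and the build mm10, without roles.

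limma-trend (R 4.3.3, limma 3.58.1) was fitted once to log2(value + 1) over all 9 libraries and 16575 genes with a mean of at least 10, with Benjamini-Hochberg adjustment and a threshold of 0.05. Fold changes on this scale understate low genes. Dividing the deposited signal by the value of 1 read gave whole numbers to a tolerance of 0.01 for 100.0% of values, and these recovered counts were used with edgeR 4.0.16 and DESeq2 1.42.0 as alternatives. Further alternatives were pseudocounts of 0.5 and 10, no filter, a mean of at least 50, quantile and TMM normalization, array weights, a replicate block, only the 6 libraries compared, and leaving out each library. The limma fit was run on simulated counts that had the same fixed dispersion for every gene and no outlying library. Those settings differ from the libraries here, so that run does not measure error rates for these data. File columns named WT were matched to the labels' controls by treatment and number.

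Same-numbered saline and cKO LPS libraries deviated together (r = 0.387, 0.242 and 0.35), which pairs them by rule, and the block changed no member's call there and brought Nfe2l2 past the threshold. The same check for control LPS is given with the alternatives. Replicate pairs differed beyond sampling noise (chi-square per degree of freedom 39 to 218). The named genes were the 8 members, Rac1 and Sod3, up to 4 called or up to 2 uncalled genes of each pathway list, and the 3 nearest in pattern. A gene that the rule also names is not reported here and was left out of its list. Members and lists were chosen with earlier results of these data known. Positions and upstream sequence are from RefSeq GRCm38.p6, the same assembly as mm10, and exon lengths from the GENCODE vM21 annotation.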

Additional observations from a re-analysis of the deposited data

How the results depend on the processing

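Over 20 alternatives Cybb passed in 20 in both comparisons with saline, at log2 differences of 2.94 to 3.73 and 3.07 to 3.76. For control LPS against saline, 929 genes and 1 member were called. Genes called were 417 with only the 6 libraries compared in the fit, 1732 with DESeq2, 2789 with array weights and 374 to 1826 without 1 library (1826 without control LPS library 1, 387 and 374 without libraries 2 and 3, and 499, 418 and 562 without saline libraries 1 to 3). The count test of edgeR called 828 genes here and 914 for cKO LPS against saline. Members called were 2 with a mean of at least 50, with quantile normalization and with the replicate block, 3 with DESeq2, 5 with array weights and 1 to 3 without 1 library (3 without control LPS library 1, 2 without saline library 3). For Rac2 the adjusted p was 0.0462, 0.0455, 0.0437, 0.00188 and 0.00199 in these settings. Same-numbered libraries correlated at 0.37, 0.0785 and 0.233 in this comparison and at 0.468, -0.066 and 0.216 between the LPS groups. Different-numbered libraries reached 0.179 and 0.313 there, so neither was taken as paired, which so few correlations cannot settle. For cKO LPS against saline, 1131 genes and 2 members were called, with 2049 genes by DESeq2, 3182 by array weights and 490 to 1656 without 1 library (639, 591 and 709 without saline libraries 1 to 3, and 519, 588 and 490 without cKO LPS libraries 1 to 3). Members numbered 4 with array weights, 1 with edgeR and 1 to 3 without 1 library (3 without control LPS library 1).

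For cKO LPS against control LPS, 0 genes were called, 1 with only the 6 libraries compared, 4 with DESeq2 and 0 to 1 without 1 library, and members numbered 0 throughout. Differences near 0 changed sign. With array weights Cybb was at -0.267, Ncf4 at 0.0162, Rac2 at -0.18, Hvcn1 at -0.0746 and Rac1 at -0.0702. With quantile normalization Hvcn1 was at -0.0195, and with TMM Cyba was at 0.00565. With edgeR Ncf4 was at 0.0152, Rac2 at -0.0246 and Sod3 at -0.762, and with DESeq2 Ncf4 was at 0.00515, Rac2 at -0.0294, Hvcn1 at -0.00466 and Sod3 at -0.815. Without 1 library the ranges were -0.251 to 0.535 (Cybb), -0.169 to 0.0995 (Cyba), -0.227 to 0.149 (Ncf4), -0.278 to 0.277 (Rac2), -0.106 to 0.168 (Hvcn1), -0.203 to 0.0524 (Sod1), -0.508 to 0.0302 (Sod2), -0.0728 to 0.202 (Rac1) and -0.406 to 1.82 (Sod3). Against saline, Sod3 in control LPS changed sign with edgeR (0.11) and DESeq2 (0.148). The causes were not tested. The block changed no other call of a member. Itgb2, Nfe2l2 and Gpx3 lost their calls in control LPS in 11, 10 and 8 of 20 alternatives. With array weights the activator, removal and NRF2 lists had 4, 9 and 5 genes called in control LPS, with DESeq2 the first and second had 2 and 5, and with edgeR all 3 had 0. Over all genes tested, array weights called 2789 there, DESeq2 1732 and edgeR 828. Cybb in saline had the fewest reads of any member in any group, 1282, and replicate libraries differed beyond counting noise.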
